A study of Mustela putorius furo and Mus musculus with 4 samples.

Results

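Genes of the Notch pathway were examined in cultured astrocytes of the ferret and the mouse. The group holds 10 genes chosen by name, the receptors Notch1, Notch2 and Notch3, the ligands Jag1 and Dll1, the DNA-binding factor Rbpj, and the target genes Hes1, Hes5, Hey1 and Hey2. They were looked up in the libraries of each species by symbol, without regard to case, and 13373 symbols in all had a value in both. A total of 7 members had values in ferret and mouse libraries, and Dll1, Hes5 and Hey2 had values in the mouse libraries only.

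The data come from 2 libraries of ferret astrocytes and 2 libraries of mouse astrocytes. Ferret cells were taken from cerebral cortices on postnatal day 1, and mouse cells from cortices of the ICR strain on postnatal day 1 to 3. Both were grown as mixed glia in serum for 14 days, shaken to remove loosely attached cells, replated, and then moved to a serum-free medium with heparin-binding EGF-like growth factor before RNA was harvested. Cells of 1 ferret pup were spread over several flasks, whereas cells of several mouse pups shared a flask, and nothing read here says whether the duplicates of a species came from separate cultures, so their spread may be technical.

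Notch receptors are cell surface proteins that are activated by ligands on a neighbouring cell. Ligand binding leads to cleavage of the receptor by ADAM proteases and by gamma-secretase, and the freed intracellular domain enters the nucleus, where it joins RBPJ and Mastermind-like proteins and turns on genes of the HES and HEY families. HES and HEY proteins repress transcription, in neural tissue mainly of proneural genes, and Notch signalling is known for keeping cortical progenitors undifferentiated and for its role in the formation of astrocytes.

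Levels are given as FPKM, the unit the authors deposited, which scales fragment counts to exon length and library size. It is relative to gene length, so levels of different genes can be set side by side, but each species was quantified on its own gene models, so species, annotation and culture cannot be told apart. Differences are given on the log2(FPKM + 1) scale as ferret minus mouse, a scale that understates the change of low genes. A gene was called when its adjusted p was under 0.05 and its absolute log2 difference was above 1. Of the 10204 genes tested, 13.1% were called higher and 30.1% lower in ferret astrocytes (43.2% in either direction), and 32.4% were higher and 56.2% lower at the adjusted p alone (88.6% in either direction). The median difference of all these genes was -0.35. The FPKM of shared symbols summed to between 227391 and 236543 FPKM in the ferret and between 300465 and 308121 FPKM in the mouse libraries. Ratios within libraries were set against each other by exact permutation, for which 4 libraries allow no p below 0.333. In cultures measured in bulk, fewer cells of a type and less RNA per cell cannot be told apart.

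The cells of both species carried Gfap, the intermediate filament that defines astrocytes, at 1481 and 1522 FPKM in the ferret and at 1429 and 1546 FPKM in the mouse libraries. All 11 astrocyte markers had values in both species. Of these, 7 were called lower and 1 higher in ferret astrocytes, beside 30.1% and 13.1% of all genes. Their summed level lay between 4704 and 4898 FPKM in the ferret and between 10273 and 11054 FPKM in the mouse libraries. That gap comes mainly from Vim, with means of 1230 and 4262 FPKM, and Apoe, with 12.0 and 3175 FPKM. Aldoc was higher in the ferret, at 1660 against 965 FPKM. Between duplicates of the 7 shared Notch genes, the largest absolute log2 difference was 0.13 in the ferret, for Hey1, and 0.15 in the mouse, for Rbpj. Both lay above the medians of 0.084 and 0.065 over all genes whose mean reached 1 FPKM in that species.

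**Figure D1:**
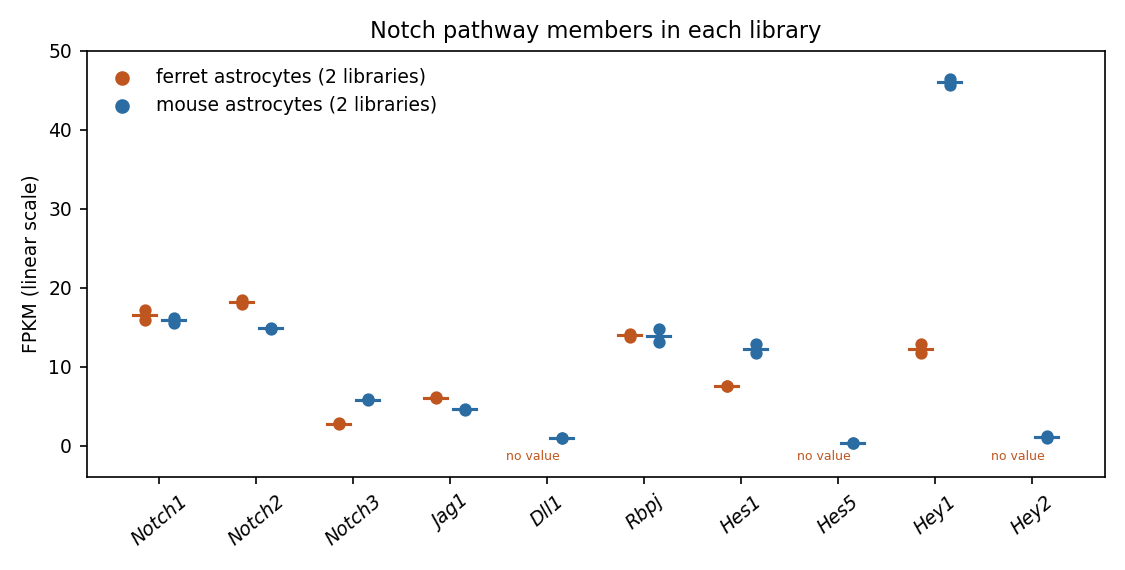
FPKM of the 10 Notch genes (vertical axis, linear) in each of the 2 ferret and 2 mouse libraries, with points for libraries, short lines for means, and "no value" where no ferret symbol was found. The Hey1 points of the mouse, at 45.6 and 46.4 FPKM, stand far above all others, while those of Notch1 and Rbpj overlap between the species.

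Notch1, the receptor best known from cortical progenitors, did not pass the test between species in the values as deposited. It had 15.9 and 17.2 FPKM in the ferret, against 16.2 and 15.6 FPKM in the mouse. The mouse values fell between or just below those of the ferret, so the groups overlapped. The log2 difference was 0.06 (standard error, SE, 0.068, limma, Benjamini-Hochberg adjusted p = 0.448). Relative to the median of all genes Notch1 stood 0.41 higher in the ferret, and with the libraries rescaled to equal sums the difference was 0.42 (limma adjusted p = 3.62e-04), so whether it passes the test depends on the scaling between species. The mouse gene spans bases 26457903 to 26516663 of chromosome 2 in GRCm38 (minus strand, 40 exonic regions). Like Notch3, Dll1, Rbpj and Hes5, it overlaps an annotated transcript on the opposite strand, and whether strand was used in quantification is not given in the sources used here, so reads of such partners may be included.

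Notch2, the receptor whose product shares most of its structure with NOTCH1, was slightly higher in ferret astrocytes. The ferret libraries held 17.9 and 18.4 FPKM and the mouse libraries 14.9 and 14.8 FPKM, without overlap. The log2 difference of 0.27 (SE 0.062, limma, Benjamini-Hochberg adjusted p = 0.00224) stayed under the limit for a call, and amounted to a mean FPKM 1.22-fold higher in the ferret. Under the scalings tried it ranged up to 0.67. Mouse Notch2 spans bases 98013527 to 98150361 of chromosome 3 (plus strand, 34 exonic regions). It overlaps 2 annotated genes on the same strand, Gm42819 and Gm42820, whose reads may be included.

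Notch3, a receptor known above all from smooth muscle cells and pericytes of blood vessels, went the other way. The ferret libraries held 2.86 and 2.7 FPKM of it, and those of the mouse 5.86 and 5.77 FPKM. Both mouse libraries were about 2 times as high as both ferret libraries, with a fold of 2.10 between the means. The log2 difference was -0.85 (SE 0.074, limma, Benjamini-Hochberg adjusted p = 2.02e-06), which passed the test but not the limit of 1. It passed that limit with a pseudocount of 0.1, at -1.04, and shrank to -0.43 after quantile normalization, lower in the ferret in both cases. The mouse gene spans bases 32120820 to 32166852 of chromosome 17 (minus strand, 33 exonic regions), and an antisense transcript of GENCODE overlaps it on the opposite strand.

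The summed FPKM of the 3 receptors differed by less than the sum of the SDs, at 37.5 ± 1.22 (SD, n = 2) in ferret astrocytes, against 36.6 ± 0.578 (SD, n = 2) in those of the mouse, and the libraries overlapped. This holds for FPKM as deposited, since with libraries rescaled to equal sums the receptors summed to 43.3 ± 0.202 (SD, n = 2) in the ferret and 32.2 ± 1.08 (SD, n = 2) in the mouse, without overlap. The make-up of the sum also differed, and a constant factor per library does not change it, whereas quantile normalization can. Notch1 made up 43.3% and 44.9% of it in the ferret, against 43.7% and 43.1% in the mouse. The share of Notch2 was 48.9% and 48.0% in the ferret and 40.4% and 40.9% in the mouse, higher by 7.76 percentage points in the ferret. The share of Notch3 was 7.80% and 7.04% in the ferret and 15.9% and 16% in the mouse, a ferret minus mouse difference of -8.50 percentage points. For Notch2 and Notch3 the libraries of the species did not overlap, and the exact permutation test gave the smallest p it allows, 0.333 (two-sided).

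**Figure D2:**
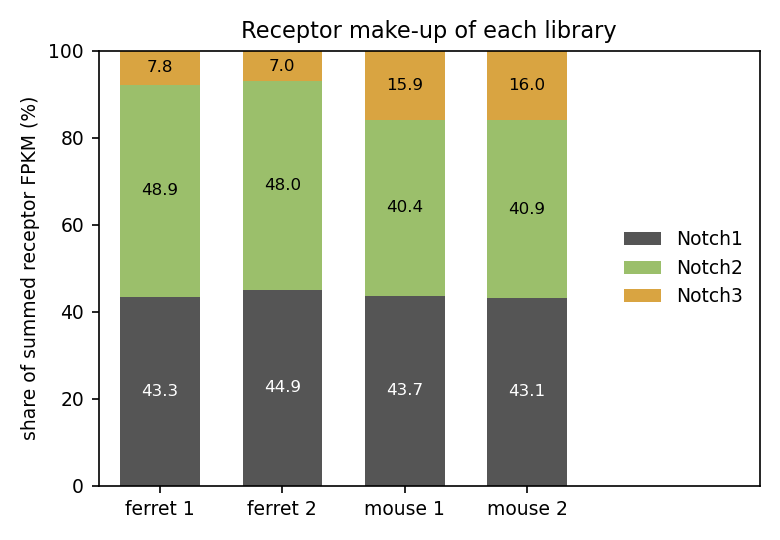
Share of Notch1, Notch2 and Notch3 in their summed FPKM (vertical axis, percent, from 0 to 100) for each of the 4 libraries, drawn as stacked bars with each share printed inside. The Notch3 block is 15.9% and 16% in the mouse against 7.8% and 7.0% in the ferret libraries, and the Notch1 block lies between 43.1% and 44.9% in all 4.

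Jag1, a ligand of the Jagged class, was the only ligand among the members with values in both species. It had 6.10 and 6.04 FPKM in the ferret, against 4.53 and 4.65 FPKM in the mouse. The ferret libraries were both above the mouse libraries, with a log2 difference of 0.34 (SE 0.072, limma, Benjamini-Hochberg adjusted p = 0.00133) and a mean FPKM 1.32-fold higher. With scaling between the species the difference ranged up to 0.76, still under the limit for a call. Set against Notch1 in the same library, Jag1 stood at 0.384 and 0.351 of its FPKM in the ferret and at 0.280 and 0.298 in the mouse. Mouse Jag1 spans bases 137081456 to 137116644 of chromosome 2 (minus strand, 25 exonic regions), with no overlapping gene.

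Dll1, a ligand of the Delta class that is typical of differentiating neurons and their precursors, had 0.915 and 0.947 FPKM in the mouse libraries. In the mouse this ligand was therefore well below Jag1, whose mean of 4.59 FPKM was the higher in both libraries. The ferret libraries held no value under the symbol of Dll1, nor under those of Hes5 and Hey2, although RefSeq names all 3 genes on another ferret assembly. No species comparison was made for these genes.

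Rbpj, which encodes the factor that brings the Notch intracellular domain to DNA, had the smallest difference of the 7 shared members. It had 13.8 and 14.2 FPKM in the ferret, against 14.7 and 13.2 FPKM in the mouse, so the ferret values lay inside the range of the mouse. The log2 difference was 0.01 (SE 0.072, limma, Benjamini-Hochberg adjusted p = 0.913), which became 0.37 with libraries rescaled to equal sums (limma adjusted p = 0.00236). The mouse annotation also holds pseudogenes named for this gene, of which Rbpj-ps3 was listed at 5.51 and 5.54 FPKM and Rbpj-ps1 at 0 in both libraries, and reads shared between Rbpj and such copies make the mouse level uncertain. Mouse Rbpj spans bases 53466152 to 53657362 of chromosome 5 (plus strand, 19 exonic regions).

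Of the HES and HEY targets among the members, the 2 with values in both species, Hes1 and Hey1, were lower in ferret astrocytes. HES and HEY proteins bind DNA as dimers through a basic helix-loop-helix domain, and many of them end in a short motif of 4 residues through which HES proteins recruit TLE co-repressors. The codons for that motif are shown for the members in whose longest mouse coding sequence it was found, since its form separates the families. Codons were searched in frame for tryptophan or tyrosine followed by arginine, proline and tryptophan. The lines run from 2 codons before the motif to the stop codon, 5′ to 3′, with the 12 bases of the motif in capitals.
Hes1 (chr16:30067402-30067428, plus strand): tccatgTGGAGACCGTGGcggaactga
Hes5 (chr4:154961655-154961675, plus strand): ggcctcTGGCGGCCCTGGtga
Hey1 (chr3:8664496-8664537, minus strand): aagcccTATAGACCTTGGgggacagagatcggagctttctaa
All are coding sequence of mouse transcripts in GENCODE M21 on GRCm38. Hes5 shares 9 of the 12 motif bases with Hes1, and Hey1 shares 9 as well. The motif is followed by 2 codons in Hes1, by 0 in Hes5 and by 7 in Hey1 before the stop. Neither form was found in the coding sequences of Hey2 and Heyl.

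Hey1, a target that is prominent in blood vessels and also found in neural progenitors, showed the largest difference of the 7 shared members. It had 12.9 and 11.7 FPKM in the ferret, against 45.6 and 46.4 FPKM in the mouse. Both mouse libraries were more than 3 times as high as either ferret library, with a mean FPKM 3.75-fold higher. The log2 difference was -1.83 (SE 0.066, limma, Benjamini-Hochberg adjusted p = 3.20e-09), and 12.8% of all genes tested had a difference at or below this value. Hey1 was called lower in the ferret under every scaling tried, where its difference lay between -1.83 and -1.44. The mouse gene spans bases 8663359 to 8667256 of chromosome 3 (minus strand, 3 exonic regions), with no overlapping gene.

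Hes1, the target that keeps neural progenitors from differentiating, was lower in the ferret by a smaller step. The ferret libraries held 7.5 and 7.56 FPKM of it, and those of the mouse 12.8 and 11.7 FPKM, without overlap. The log2 difference was -0.63 (SE 0.072, limma, Benjamini-Hochberg adjusted p = 1.67e-05), and the mean FPKM was 1.63-fold higher in the mouse. It shrank to -0.21 after quantile normalization (limma adjusted p = 0.0283) and was -0.28 relative to the median of all genes. Mouse Hes1 spans bases 30064384 to 30067796 of chromosome 16 (plus strand, 7 exonic regions).

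The balance of the targets within a library also differed. The ratio of Hey1 to Hes1 was 1.71 and 1.55 in the ferret, against 3.56 and 3.97 in the mouse. Hes1 stood at 0.543 and 0.533 of the FPKM of Rbpj in the ferret and at 0.872 and 0.887 in the mouse. Neither ratio overlapped between the species, and the exact permutation p of both was 0.333 (two-sided), the smallest possible. A constant factor per library leaves these ratios as they are, but they do depend on the gene models of each species.

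Of the targets measured in the mouse alone, Hes5, a target that is abundant in embryonic neural stem cells, had 0.283 and 0.385 FPKM, and Hey2 had 0.954 and 1.18 FPKM. Both were far below Hes1, at a mean of 12.2 FPKM, and Hey1, at a mean of 46.0 FPKM, in the same libraries. Mouse Hes5 lies on chromosome 4 from 154960923 to 154962371, Hey2 on chromosome 10 from 30832359 to 30842801 and Dll1 on chromosome 17 from 15367354 to 15376872.

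The order of the levels was not the same in the species. In the ferret it ran from Notch2 (18.1 ± 0.371 FPKM, SD, n = 2) over Notch1, Rbpj, Hey1, Hes1 and Jag1 to Notch3 (2.78 ± 0.113, SD, n = 2), and each gene differed from the next by more than the sum of their SDs. In the mouse it ran from Hey1 (46.0 ± 0.506, SD, n = 2) over Notch1, Notch2, Rbpj, Hes1, Notch3, Jag1, Hey2 and Dll1 to Hes5 (0.334 ± 0.072, SD, n = 2). The mouse neighbours Notch2 and Rbpj, Rbpj and Hes1, and Hey2 and Dll1 differed by less than the sum of their SDs. Hey1 held place 4 in the ferret and place 1 in the mouse, where it was 2.90-fold above the next gene, and Jag1 and Notch3 changed places.

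Among the 7 members tested, 0 were called higher and 1 was called lower in ferret astrocytes, beside 13.1% and 30.1% of all genes, or 1 of 7 in either direction beside 43.2%. At the adjusted p alone 2 were higher, 3 were lower and 2 did not pass, beside 32.4% higher, 56.2% lower and 88.6% in either direction among all genes. Their median log2 difference was 0.01 against -0.35 for all genes. With the scalings that set the median of all genes near 0, the median of the members lay between 0.36 and 0.41, with Notch1, Notch2, Jag1 and Rbpj higher and Notch3, Hes1 and Hey1 lower in the ferret, all at an adjusted p under 0.05 by limma.

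**Figure D3:**
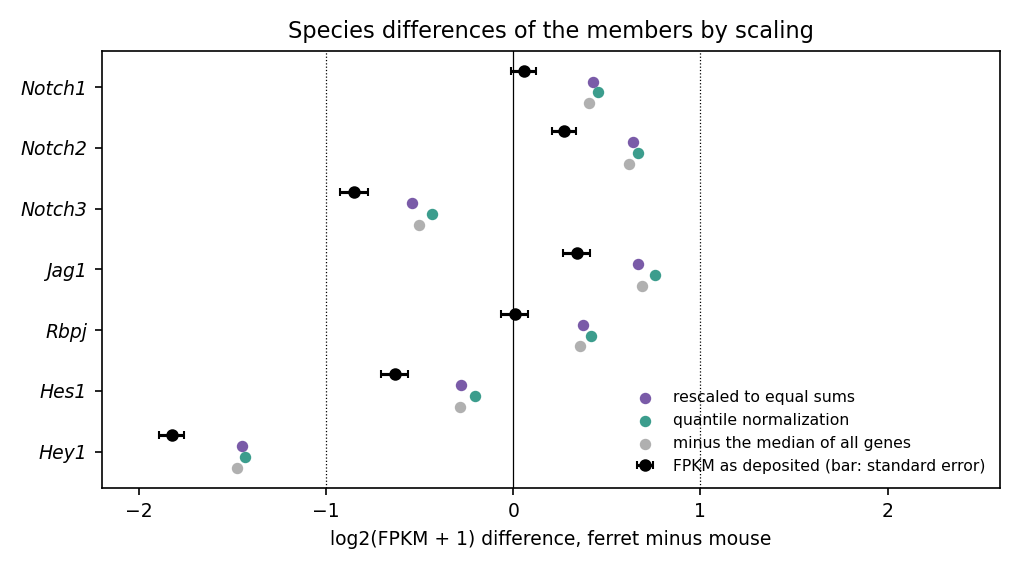
Log2(FPKM + 1) difference, ferret minus mouse (horizontal axis), of the 7 Notch genes measured in both species, for FPKM as deposited (black, with standard errors) and for 3 other scalings, with dotted lines at the limit of 1 in either direction. Hey1 lies beyond -1 under all 4, Notch1 and Rbpj sit at 0.06 and 0.01 as deposited and to the right of 0 otherwise, and no member lies beyond 1.

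A list of 77 other genes of the pathway was examined for context. Values in both species were found for 65, those without a ferret value including Jag2, Lfng, Rfng, Neurl1a, Kat2b, Cir1, Ctbp2, Tle2, Tle5, Hes6 and Nrarp, and 52 reached a mean of 1 FPKM in one of them. Of these 52 genes, 3 (5.77%) were called higher and 17 (32.7%) lower in ferret astrocytes, beside 13.1% and 30.1% of all genes tested, and their median log2 difference was -0.36. With libraries rescaled to equal sums 6 (11.5%) were called higher and 11 (21.2%) lower, beside 19.1% and 21.7% of all genes under that scaling. After quantile normalization the counts were 7 (13.5%) and 11 (21.2%), beside 20.3% and 20.5%. All adjusted p-values of these genes come from the same limma fit.

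**Figure D4:**
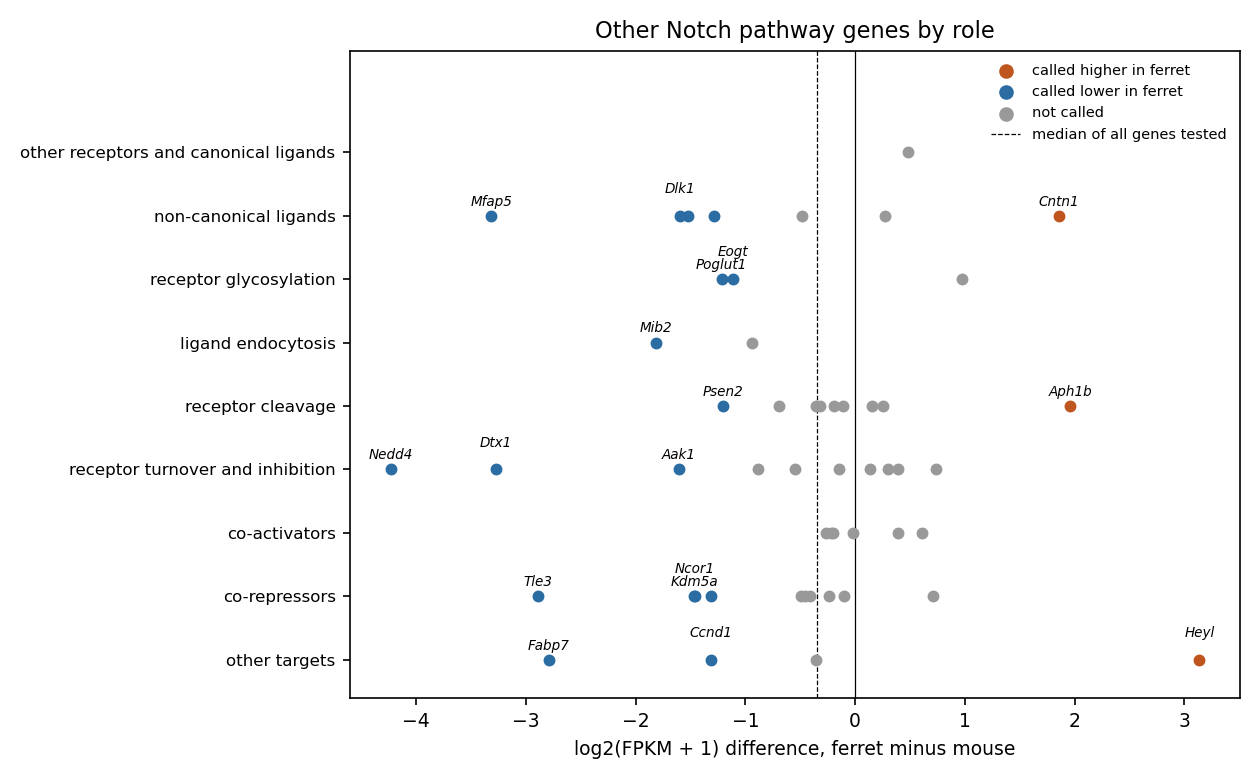
Log2(FPKM + 1) difference, ferret minus mouse (horizontal axis), of 52 other Notch pathway genes in rows by role, coloured by call, with names for the called genes among the 3 of each role that differed most. The dashed line marks the median of all genes at -0.35, Heyl lies farthest to the right at 3.14 and Nedd4 farthest to the left at -4.23.

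Among the remaining receptors and canonical ligands, only Notch4, a receptor typical of endothelial cells, reached the level for testing. It had 0.965 and 1.23 FPKM in the ferret, against 0.641 and 0.372 in the mouse, a log2 difference of 0.48 (limma, Benjamini-Hochberg adjusted p = 0.00171) that was no call, but became one at 1.11 with libraries rescaled to a sum of 1000000. Notch4 reached the level only through the ferret, at a mean of 1.10 FPKM, which largely fixed its direction in advance. Without ferret replicate 2 it fell below that level and was not tested. Dll3 and Dll4 stayed under an FPKM of 1 in all libraries. Jag2 was measured in the mouse only, at 0.63 FPKM on average. In both species Jag1 was thus the highest canonical ligand measured.

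Non-canonical ligands are proteins reported to bind Notch outside the Delta and Jagged families. Of 7, 1 was called higher and 4 lower, beside 13.1% and 30.1% of all genes. Mfap5, a microfibril protein of the extracellular matrix, had 2.67 and 2.28 FPKM in the ferret, against 34.3 and 32.7 FPKM in the mouse (log2 difference -3.31). Dlk1, a membrane protein related to the Delta ligands, stood at 0.261 ± 0.054 FPKM (SD, n = 2) in ferret astrocytes, against 2.82 ± 0.182 (SD, n = 2) in those of the mouse. Only through the mouse did Dlk1 reach the level for testing, which largely fixed the direction of its call in advance. Cntn1, a contactin of the neuronal and glial surface, was the higher gene, with 28.8 and 24.9 FPKM in the ferret, against 6.20 and 7.19 FPKM in the mouse (log2 difference 1.85).

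Of 3 enzymes tested that add sugars to the receptors, 2 were called lower and 0 higher, beside 30.1% and 13.1% of all genes. Pofut1, which adds O-fucose to Notch, had 30.1 ± 0.322 FPKM (SD, n = 2) in ferret astrocytes, against 14.8 ± 0.571 (SD, n = 2) in those of the mouse, a log2 difference of 0.98 just under the limit, which it passed at 1.35 after rescaling to equal sums. Poglut1, which adds O-glucose, had 11 ± 0.267 (SD, n = 2) and 26.9 ± 1.19 (SD, n = 2), and Eogt, which adds GlcNAc, 2.74 ± 0.189 (SD, n = 2) and 7.10 ± 0.074 (SD, n = 2). Both were called lower, with differences of -1.22 and -1.12, and both came within the limit of 1 after quantile normalization or rescaling to equal sums. The fringe enzymes Lfng and Rfng had means of 21.7 and 10.6 FPKM in the mouse and no ferret value.

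Mib1 and Mib2, ubiquitin ligases that drive ligand endocytosis in the signal-sending cell, were both lower in the ferret. Of these 2, 1 was called lower, beside 30.1% of all genes. Mib2 had 2.67 and 2.99 FPKM in the ferret, against 12.6 and 12.3 FPKM in the mouse, a log2 difference of -1.81 that was called. Mib1 had means of 9.39 and 19.0 FPKM, a difference of -0.94 that passed the adjusted p alone.

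Of 9 receptor-cutting proteases and subunits of gamma-secretase, 1 was called higher and 1 lower, beside 13.1% and 30.1% of all genes. Aph1b, a subunit of gamma-secretase, had 31.9 and 29.2 FPKM in the ferret, against 6.79 and 7.42 FPKM in the mouse (log2 difference 1.96), although the mouse has a close copy of it, Aph1c, with which reads may be shared. Psen2, a catalytic subunit of the same complex, went the other way with 5.63 ± 0.152 FPKM (SD, n = 2) in ferret astrocytes, against 14.2 ± 0.658 (SD, n = 2) in those of the mouse, a difference of -1.20 that came within the limit after rescaling to equal sums.

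Among 10 genes of receptor turnover and inhibition, 3 (30%) were called lower and 0 higher, beside 30.1% and 13.1% of all genes. Nedd4, a ubiquitin ligase with Notch among its many targets, had 15.1 and 14.9 FPKM in the ferret, against 299 and 300.2 FPKM in the mouse (log2 difference -4.23). Dtx1, a Deltex protein that binds the Notch intracellular domain and is itself induced by Notch in lymphocytes, had 0.346 and 0.286 FPKM in the ferret, against 11 and 12.4 FPKM in the mouse (log2 difference -3.27). Since Dtx1 reached the level for testing only through the mouse, the direction of its call was largely fixed in advance. Aak1, a kinase of clathrin-mediated endocytosis, stood at 7.73 ± 0.861 (SD, n = 2) and 25.6 ± 0.588 FPKM (SD, n = 2).

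None of the 6 co-activators tested was called, beside 43.2% of all genes in either direction. Crebbp and Ep300, histone acetyltransferases that join the Notch complex, had log2 differences of 0.61 and 0.39, of which that of Crebbp became a call at 1.04 after quantile normalization, and Maml1, a Mastermind-like protein of that complex, one of -0.26 that turned to 0.04 after rescaling to equal sums. Of 10 co-repressors 4 were called lower and 0 higher, beside 30.1% and 13.1% of all genes. Tle3, a co-repressor of the TLE family that HES proteins recruit, had 4.43 and 5.05 FPKM in the ferret, against 41.9 and 41.2 FPKM in the mouse (log2 difference -2.89). Ncor1, a nuclear receptor co-repressor, had means of 15.3 and 44.0 FPKM and Kdm5a, a histone demethylase that works with RBPJ, 6.08 and 18.5 FPKM, each with a difference of -1.46.

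Of 4 other genes tested that are known as Notch targets, 1 was called higher and 2 lower, beside 13.1% and 30.1% of all genes. Heyl, the third member of the HEY family, had 9.01 and 8.02 FPKM in the ferret, against 0.061 and 0.101 FPKM in the mouse. Its log2 difference of 3.14 (SE 0.083, limma, Benjamini-Hochberg adjusted p = 4.35e-10) was above that of 99% of all genes tested, and at levels this low in the mouse it rose to 5.58 with a pseudocount of 0.1. Heyl reached the level for testing only through the ferret, which largely fixed the direction of its call in advance. As a share of the FPKM of Hey1 and Heyl together, Heyl stood at 41.2% and 40.7% in the ferret, against 0.133% and 0.216% in the mouse. That sum was 20.8 ± 1.53 FPKM (SD, n = 2) in ferret astrocytes, against 46.1 ± 0.534 (SD, n = 2) in those of the mouse, lower in the ferret despite Heyl. Fabp7, a fatty acid-binding protein of radial glia, had 190.4 and 170.5 FPKM in the ferret, against 1232 and 1271 FPKM in the mouse (log2 difference -2.79). Ccnd1, a cyclin of the G1 phase, had means of 149 and 369.6 FPKM and a difference of -1.31, which came within the limit after rescaling to equal sums.

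None of the 5 proneural genes with values in both species, which were listed as repressed by HES factors, reached the level for testing. Neurog1, Neurod4 and Atoh1 are listed at 0 in all 4 libraries, Neurog2 had at most 0.052 FPKM, and Neurod1 at most 0.038.

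Members were compared with the 65 other pathway genes by the distance between their log2(FPKM + 1) values over the 4 libraries after each gene's mean was subtracted. Hey1 was nearest to Mib2 (distance 0.18) and Dlk1 (0.28), and Notch3 to Dtx3 (0.050) and Mib1 (0.092). Notch2 was nearest to Ncstn (0.018) and Itch (0.075), and Jag1 to Itch (0.059) and Maml3 (0.072). Notch1 and Rbpj were nearest to genes at or near 0 in every library, which says only that they differed little. With 4 libraries in 2 groups, these distances describe little more than the size of the species difference.

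Markers of other cells that use Notch signalling differed between the cultures. Endothelial genes summed to between 0.599 and 0.628 FPKM in the ferret and between 28.9 and 29.3 FPKM in the mouse libraries. Of 9 listed, 3 reached the level for testing, Cdh5, Tek and Esam, and all were called lower, beside 30.1% of all genes. Each reached that level only through the mouse, which largely fixed the direction of the call in advance. Most of the mouse sum was Cdh5, at 22 and 22.5 FPKM, while the defining genes Pecam1, at 0.041 and 0.031 FPKM, and Cldn5, at 0 in both mouse libraries, were at or near 0. Genes of mural cells, the pericytes and smooth muscle cells of vessels, summed to between 40.9 and 44.5 FPKM in the ferret and between 310 and 326 FPKM in the mouse libraries. Of 5 tested 4 were called lower and 1 higher, beside 30.1% and 13.1% of all genes. Among the lower genes, Pdgfrb had means of 4.48 and 23.6 FPKM and Acta2 of 21.6 and 230 FPKM. Kcnj8 was called higher, at 11.7 and 11.3 FPKM in the ferret, against 0.014 and 0.023 in the mouse. Kcnj8 reached the level for testing only through the ferret, and Anpep, among the lower genes, only through the mouse. The direction of both calls was thus largely fixed in advance. Rgs5, a defining pericyte gene, was listed at 0 in both ferret libraries and had 0.601 and 0.576 FPKM in the mouse. The part of these cells in the differences of Notch3, Hey1 and Heyl was not tested.

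Genes of the other lists were called as well, beside 13.1% called higher and 30.1% called lower among all genes tested. Sums of these lists hold only genes with values in both species. Meningeal fibroblast genes were called lower in 8 of 8 tested, with sums between 107 and 122 FPKM in the ferret and between 1177 and 1182 FPKM in the mouse libraries. Several of them, such as Serpinf1, reached the level for testing only through the mouse. Col1a2 led the list in the ferret at a mean of 79.6 FPKM and Serpinf1 in the mouse at 641 FPKM. Microglial genes were called lower in 8 of 8, with sums between 4.56 and 5.22 FPKM in the ferret and between 227 and 238 FPKM in the mouse. All but Tmem119 reached the level for testing only through the mouse, which largely fixed the direction of those calls in advance. Cx3cr1 was listed at 0 in the ferret, where Tmem119 was highest at a mean of 3.84 FPKM. Tyrobp was highest in the mouse, of the genes with values in both species, at 146 FPKM. C1qa, at a mean of 193 FPKM in the mouse, had no ferret value and is not in the sum. Oligodendrocyte lineage genes were called higher in 3 of 8 tested, with sums between 169 and 188 FPKM in the ferret and of 69 FPKM in both mouse libraries, led by Cnp in both. Olig1 is not in these sums, since it had 107 and 117 FPKM in the mouse, more than the rest of the list together, and no ferret value. Of the oligodendrocyte lineage genes called higher, Sox10 reached the level for testing only through the ferret. Of 8 neuronal genes listed, 3 were tested and called higher, and Dcx and Gad1 of these reached the level for testing only through the ferret. Sums lay between 9.10 and 9.46 FPKM in the ferret and between 2.07 and 2.35 FPKM in the mouse. Rbfox3, the gene of the neuronal marker NeuN, had at most 0.084 FPKM in any library. Stmn2, with 124 and 127 FPKM in the mouse and no ferret value, is left out of the neuronal sums and lies far above them. Of 3 neural progenitor genes tested 1 was called lower, Prom1, which reached the level for testing only through the mouse. Nes led the list in both species with means of 70.8 and 126 FPKM. Sox2 and Hopx, at means of 47.9 and 13.6 FPKM in the mouse, had no ferret value. The part of all these cell types in the Notch results was not tested.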

How the data were processed

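Poly(A)-selected, stranded RNA libraries of ferret and mouse astrocytes were measured in duplicate. Per species, the authors used the Ensembl genome for alignment with STAR (version 2.7.0f), quantified genes with Cufflinks (version 2.2.1), and deposited 1 FPKM value per gene and library. Depth is unknown from the deposited FPKM, so low values carry no interval, and the read counts in the study's supplement were not used here.

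Symbols were matched in upper case. For symbols with several values the highest species mean was used, though no member had more than 1 value in a species. Differences were tested with limma (version 3.58.1, R 4.3.3, empirical Bayes with trend) on log2(FPKM + 1), keeping the 10204 genes whose mean reached 1 FPKM in either species, with Benjamini-Hochberg adjustment over all of them. The study states no test for these values. The fit was tested on simulated data. Python 3.11.15 with pandas 2.3.3 was used for joins. Mouse positions and sequences come from GENCODE M21 on GRCm38. Nov was looked up as Ccn3, its symbol in both species.

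The members and gene lists were chosen with earlier results of these data known. Named pathway genes were the 3 with the largest absolute difference in each role, those without a value in the ferret, and the 2 nearest to each member. Some genes that these rules would name are not reported here. Of each marker list, the gene with the highest FPKM in a species, among those with values in both, and defining genes were named. Dll3, Dll4, C1qa, Olig1, Stmn2, Sox2, Hopx, Cldn5, Rgs5, Kcnj8, Anpep, Cx3cr1, Prom1, Aph1c, Rbpj-ps1 and Rbpj-ps3 were singled out after their values were seen.

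Alternatives were a pseudocount of 0.1, no filter, FPKM rescaled to a sum of 1000000 or to the mean of the 4 sums over shared symbols, quantile normalization, a block for replicate number, the sum or the first of several values, no trend, and each library left out. The difference minus the median of all genes was added after seeing the data.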

Additional observations from a re-analysis of the deposited data

How the results depend on the processing

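Over 14 alternatives the log2 differences of Notch2, Notch3, Jag1, Hes1 and Hey1 kept their direction and an adjusted p under 0.05 by limma. Notch1 and Rbpj, which did not pass with FPKM as deposited, passed under the 4 settings that shift the species against each other. Without ferret replicate 2 their differences were -5.66e-05 and -0.0094, and with each library left out they ranged up to 0.11 for Notch1 and from -0.067 (without mouse replicate 2) to 0.084 for Rbpj. The count of members called lower rose from 1 to 2 with a pseudocount of 0.1, the second being Notch3. Genes called higher numbered 1336 as deposited, 2197 after rescaling to a sum of 1000000 and 2076 after quantile normalization, so that 30.3%, 46.4% and 49.8% of the calls were higher. With libraries left out they ranged from 1320 to 1374, genes called lower from 3051 to 3096, and the members called stayed at 0 higher and 1 lower. The 52 pathway genes held 3 calls higher and 17 lower as deposited, and 6 to 8 higher and 11 lower under the 4 settings that shift the species. Maml1 turned to 0.049, 0.041 and 0.16 under rescaling to a sum of 1000000, rescaling to equal sums and quantile normalization, and to 0.085 relative to the median of all genes. With Notch4 in the sum, the share of Notch2 was higher in the ferret by 6.95 percentage points, and with libraries left out by 7.35 to 8.18. With the replicate number as a block, 1342 genes were called higher and 3072 lower. The numbers come from the labels alone, the animals are of different species, and deviations of same-numbered libraries correlated at 0.0099, so they do not pair the samples. Low values limit what FPKM can show for Heyl, Dtx1 and Dlk1, and unequal gene models of the species cannot be told apart from expression.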
